A study of Homo sapiens with 6 samples.

Results

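Apelin, its receptor and 8 other genes of peptide hormones were followed in C4-2B prostate cancer cells with acquired enzalutamide resistance. The 10 genes were APLN, APLNR, ADM, ADM2, NTS, GRP, NPY, CALCA, VIP and PTHLH, out of 58024 genes in the expression table. APLN was selected on its strong increase in these same libraries, so its values are a description and carry no test. The other 9 were taken as the apelin receptor and as peptides of prostate or neuroendocrine cells. Of the 10 genes, 8 were above 0 in at least 1 library, 6 reached the mean of 0.1 FPKM (fragment counts scaled to transcript length and library depth) needed for testing, and 4 lay below it.

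RNA-Seq libraries were available from C4-2B parental cells (n = 3) and from their enzalutamide resistant derivative (n = 3). C4-2B is a castration-resistant subline of the LNCaP prostate cancer line, which was passed through castrated mice, and enzalutamide is an antiandrogen drug. The resistant cells came from stepwise passage in 1 to 20 µM enzalutamide over at least 6 months, were a pool of survivors and were kept in 5 µM enzalutamide. The parental cells were passaged alongside in dimethyl sulfoxide, given as 1% in the labels, while the methods state a smaller maximum for the vehicle. Both groups grew in RPMI 1640 with 10% fetal bovine serum. The extraction protocol names 10 µM enzalutamide in a way that leaves the exposure of the parental cells unclear. No label says whether the 3 libraries of a group came from separate cultures, so that p-values measure the spread between these libraries, which may be technical. The depth was estimated at 13400000 to 20000000 reads per library, with 21956 to 27153 genes above 0, and no counting interval was possible without read counts.

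Peptide hormones are made as longer precursors that pass through the secretory pathway, where convertases cut them and other enzymes trim and cap the ends. The mature peptides act on receptors of the same or neighbouring cells, mostly G protein coupled receptors, and peptidases at the cell surface end their action. Apelin acts on the apelin receptor and is best known for its effects on vessels and the heart. Adrenomedullin, adrenomedullin 2 and calcitonin gene related peptide belong to 1 family and share the receptor CALCRL, whose ligand preference is set by an accessory protein of the RAMP family. Neurotensin, gastrin releasing peptide, neuropeptide Y, vasoactive intestinal peptide, calcitonin and parathyroid hormone related protein have all been described in prostate tissue or prostate tumors.

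The promoter sequences of APLN, ADM, ADM2 and CALCA are shown first, because these 4 genes carried the values on which the comparison turns. They were read from RefSeq promoters on GRCh38.p14, of which 9 of the 10 genes had an entry. The stretches lie at chrX:129654957-129655206 on the minus strand for APLN, chr11:10304878-10305072 on the plus strand for ADM, chr22:50481293-50481542 on the plus strand for ADM2 and chr11:14972355-14972601 on the minus strand for CALCA. Each runs 5′ to 3′ on the strand of its gene and ends just before the first annotated exon, and that of ADM holds 195 bases because the bases further up belong to an exon of SBF2. Capitals mark GCGTG, a core of hypoxia response elements, or TGACG, a core of cAMP response elements, on either strand. On the opposite strand these read CACGC and CGTCA.
APLN: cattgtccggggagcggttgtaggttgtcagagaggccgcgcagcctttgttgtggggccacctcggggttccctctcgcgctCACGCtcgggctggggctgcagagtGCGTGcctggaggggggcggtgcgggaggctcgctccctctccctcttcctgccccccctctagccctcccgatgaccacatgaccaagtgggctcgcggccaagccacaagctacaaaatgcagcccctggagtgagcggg
ADM: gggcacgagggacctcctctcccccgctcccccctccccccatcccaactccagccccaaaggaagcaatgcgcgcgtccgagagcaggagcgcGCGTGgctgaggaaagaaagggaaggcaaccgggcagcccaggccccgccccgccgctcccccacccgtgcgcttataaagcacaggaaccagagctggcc
ADM2: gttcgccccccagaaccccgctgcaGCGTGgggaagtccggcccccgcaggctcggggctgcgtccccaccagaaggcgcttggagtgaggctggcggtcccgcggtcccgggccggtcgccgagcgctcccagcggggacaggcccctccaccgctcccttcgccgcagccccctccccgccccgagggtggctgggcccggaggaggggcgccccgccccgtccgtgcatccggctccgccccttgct
CALCA: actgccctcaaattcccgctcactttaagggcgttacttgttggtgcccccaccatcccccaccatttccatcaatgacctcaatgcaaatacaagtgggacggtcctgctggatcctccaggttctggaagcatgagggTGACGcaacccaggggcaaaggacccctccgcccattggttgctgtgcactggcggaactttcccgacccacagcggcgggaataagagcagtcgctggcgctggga

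The search covered 250 bases before to 50 bases after each start on both strands. GCGTG was found in APLN at positions -167 and -142 from the start, in ADM at -101 and in ADM2 at -225, and also in NPY and PTHLH. TGACG was found in CALCA at -110, and also in NTS, GRP and VIP. ACGTG, the other core of hypoxia response elements, had no match in these 9 promoters. No match overlapped another. Among all 35116 promoters of that length, GCGTG was held by 36.5%, ACGTG by 21.4% and TGACG by 24.6%, so that each motif is common. The share of G and C in these promoters was 68.0% in APLN, 65% in ADM, 76.7% in ADM2 and 59.7% in CALCA, against a median of 58.67% over all promoters. Those of NTS and VIP held 48.3% and 37.3%.

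APLN, the precursor gene of apelin, was the most abundant of these genes in the resistant cells. It lies on the minus strand of chromosome X (GRCh38, 129645259 to 129654956). Parental libraries gave 14.9, 14.0 and 15.9 FPKM, and resistant libraries gave 301, 311 and 303 FPKM. All 3 resistant libraries were far above all 3 parental libraries, and within each group the libraries lay close together. The group means were 14.9 ± 0.914 and 305 ± 5.25 FPKM (SD, n = 3 each), a ratio of means of 20.5 and a difference of 4.35 on the log2(FPKM + 0.1) scale. On a bulk library, more cells with apelin RNA and more apelin RNA per cell cannot be told apart. Ranked by mean FPKM among the 24468 genes tested, APLN moved from place 7264 in parental cells to place 281 in resistant cells. Its values stood for an estimated 643 to 902 reads in parental and 13132 to 15430 reads in resistant libraries. A set of 14585 genes had means of at least 1 FPKM in parental cells and over all libraries, with a resistant library above 0. Of these, 44 had a log2 difference at least as large, APLN included. As APLN was selected on its increase, this place is a description only. No annotated gene with a row in the table lies within 50 kb of APLN.

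The apelin receptor was almost undetected. APLNR was listed at 0 in 5 libraries and at 0.0204 FPKM in resistant replicate 0, a value that corresponds to about 1 read. APELA, the second known ligand of this receptor, was listed at 0 in all parental libraries and at 0.0265, 0.304 and 0.539 FPKM in resistant libraries. This difference missed the threshold (limma, Benjamini-Hochberg adjusted p = 0.0951). APLN was thus the 1 gene of this ligand and receptor group with levels above 1 FPKM.

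**Figure D1:**
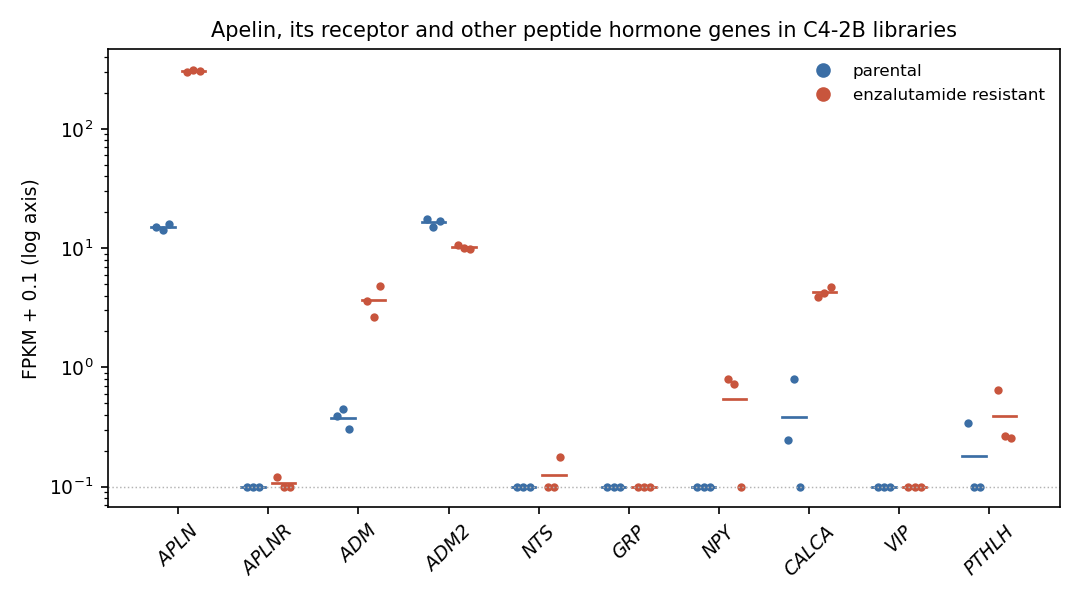
FPKM + 0.1 on a log axis for the 10 genes, with a point for each library, a bar at the mean of each group of 3 libraries and a dotted line where a value of 0 falls. APLN is at 14.0 to 15.9 FPKM in parental and 301 to 311 FPKM in resistant libraries, ADM and CALCA are higher and ADM2 is lower in resistant libraries, and APLNR, NTS, GRP and VIP sit on or near the line for 0.

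The remaining genes were compared with limma on log2(FPKM + 0.1), fitted over all 24468 genes and adjusted by the Benjamini-Hochberg method at a threshold of 0.05, and a difference on this scale understates the change of low genes. The contrast was broad. Of all genes tested, 44.4% were called, 22.1% as higher and 22.3% as lower in resistant cells, and the groups did not overlap in 54.8%. Of the 5 tested peptide genes other than APLN, 2 were higher (ADM and CALCA), 1 was lower (ADM2) and 2 missed the threshold (NPY and PTHLH), with groups that did not overlap in 3. With shares of that size over all genes, these counts say little about peptide genes as a group. NPY and PTHLH were under 0.1 FPKM in parental cells and entered the test only through resistant libraries, with means of 0.443 and 0.288 FPKM. A gene that enters in this way must have the higher mean in that group, so that any call of it is partly set by the filter. The 2 genes nearest to the filter from above were NPY and PTHLH, and the nearest from below was NTS, with means of 0 and 0.0254 FPKM in the groups.

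The adrenomedullin genes moved in opposite directions. ADM, which encodes the vasodilator adrenomedullin, lies on the plus strand of chromosome 11 (10305073 to 10307397). It gave 0.290, 0.344 and 0.203 FPKM in parental and 3.53, 2.54 and 4.75 FPKM in resistant libraries. Every resistant library was above every parental library, although the resistant values spread more widely. The means were 0.279 ± 0.0713 and 3.60 ± 1.11 FPKM (SD, n = 3 each), a ratio of 12.9. The log2 difference was 3.26 with a standard error of 0.34 (95% interval 2.44 to 4.08, limma adjusted p = 5.15e-04). The parental values stood for only 5.8 to 14.0 estimated reads, against 85.2 to 144.5 in resistant libraries, so that the parental level is the less certain one. With a pseudocount of 1 FPKM the log2 difference was 1.82, still past the threshold.

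AMPD3, an AMP deaminase gene that starts 916 bases beyond ADM on the same strand, was also higher in resistant cells. Its values were 0.610, 0.226 and 0.580 FPKM in parental and 3.65, 1.34 and 1.52 FPKM in resistant libraries (log2 difference 1.93, limma adjusted p = 0.0230). Whether reads run from ADM into its neighbour was not tested. SBF2, which lies on the opposite strand with its start 196 bases from that of ADM, was at 24.4 ± 4.49 FPKM in parental and 21.6 ± 2.41 FPKM in resistant libraries and missed the threshold (limma adjusted p = 0.419).

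ADM2, the gene of adrenomedullin 2 or intermedin, was lower in resistant cells. It lies on the plus strand of chromosome 22 (50481543 to 50486440). Parental libraries gave 17.5, 14.9 and 16.8 FPKM and resistant libraries 10.6, 9.98 and 9.79 FPKM. The 3 resistant values were all below the 3 parental values. The parental mean of 16.4 ± 1.33 FPKM exceeded the resistant mean of 10.1 ± 0.436 FPKM (SD, n = 3 each) by a ratio of 1.62. The log2 difference was -0.69 with a standard error of 0.11 (95% interval -0.95 to -0.43, limma adjusted p = 0.00266). ADM2 overlaps SBF1, a gene of the opposite strand at 53.6 ± 6.63 FPKM in parental and 62.4 ± 4.11 FPKM in resistant libraries. The labels name both a stranded kit and an unstranded kit, and whether reads were counted by strand is not given in the sources used here, so the split of reads between ADM2 and SBF1 is uncertain. ADM and ADM2 transcripts shared no stretch of 50 bases, the length of the reads.

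CALCA, which yields calcitonin or alpha calcitonin gene related peptide by alternative splicing, was higher in resistant cells. It lies on the minus strand of chromosome 11 (14966622 to 14972354). Parental libraries gave 0.144, 0.698 and 0 FPKM and resistant libraries 3.79, 4.10 and 4.65 FPKM. The resistant libraries were close to each other and all above the parental libraries, which differed widely. The means were 0.281 ± 0.369 and 4.18 ± 0.435 FPKM (SD, n = 3 each), a ratio of 14.9. The log2 difference was 3.99 with a standard error of 0.74 (95% interval 2.21 to 5.76, limma adjusted p = 0.00547). It was 4.77 without parental replicate 1 and 3.27 without parental replicate 2, the library listed at 0, and the call held in both. A value per gene cannot separate the calcitonin from the peptide transcripts.

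CALCB, the neighbouring gene of beta calcitonin gene related peptide, changed with it. It was at 0.248, 0 and 0.0869 FPKM in parental and 9.14, 7.53 and 7.45 FPKM in resistant libraries (log2 difference 5.44, limma adjusted p = 2.69e-04). The groups did not overlap. The annotated spans of CALCA and CALCB overlap on opposite strands, and their transcripts share a small part of their sequence. Of 2311 distinct stretches of 50 bases in CALCA transcripts, 43 (1.86%) also occur in CALCB, so that most of its stretches are its own. None matched on the opposite strand.

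The other peptide genes were at or near 0. NPY, the gene of neuropeptide Y, was listed at 0 in all parental libraries and gave 0.705, 0.626 and 0 FPKM in resistant libraries. These are an estimated 8.3 and 6.9 reads in the first and the next library, while the last overlapped the parental group, and the difference missed the threshold (limma adjusted p = 0.118). Without resistant replicate 2, the only resistant library at 0, it passed (limma adjusted p = 0.00536). As NPY also entered the test only through resistant libraries, this pass is not read as a result. PTHLH, the gene of parathyroid hormone related protein, gave 0.244, 0 and 0 FPKM in parental and 0.545, 0.165 and 0.154 FPKM in resistant libraries. The groups overlapped, and the log2 difference of 1.22 with a standard error of 0.70 missed the threshold (95% interval -0.48 to 2.92, limma adjusted p = 0.208).

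NTS, the gene of neurotensin, was listed at 0 in 5 libraries and at 0.0762 FPKM in resistant replicate 2, a value of 1.5 estimated reads. GRP and VIP, the genes of gastrin releasing peptide and vasoactive intestinal peptide, were listed at 0 in all 6 libraries. For GRP, 1 read would have given 0.0755 to 0.113 FPKM, and for VIP 0.0360 to 0.0538 FPKM, so lower levels were not detectable at this depth. Annotated neighbours of APLNR, NTS, GRP, NPY and VIP within 50 kb that had a row in the table were also at or near 0, the highest value being 0.372 FPKM for HSPD1P16 near VIP.

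By mean FPKM, the order in parental cells was ADM2, APLN, CALCA, ADM and PTHLH. ADM2 and APLN had overlapping values there, and so did CALCA, ADM and PTHLH. In resistant cells the order was APLN, ADM2, CALCA, ADM, NPY and PTHLH. APLN, ADM2 and ADM each stood clear of the next gene in that order, while CALCA overlapped ADM and NPY overlapped PTHLH.

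Receptors, accessory proteins and sister peptides of these hormones were listed as 30 genes, chosen with results of these libraries known. Of these, 25 were above 0 in a library and 15 were tested, with 8 higher, 2 lower and 5 that missed the threshold, beside 22.1% higher and 22.3% lower over all genes. Of the 15, APELA, RAMP2, ADCYAP1 and PTH2 entered the test only through resistant libraries and GRPR only through parental libraries, so that the counts are partly set by the filter and are not read as a result about the list. Their median log2 difference was 1.39, or 1.11 without 4 genes at 0 in all libraries of a group, against -0.05 over all genes tested.

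Among the parts of the adrenomedullin and calcitonin gene related peptide receptors, RAMP1 was the most abundant. RAMP1, the partner that makes CALCRL prefer calcitonin gene related peptide, rose from 93.9 ± 4.07 to 202 ± 3.23 FPKM (SD, n = 3 each, log2 difference 1.11, limma adjusted p = 4.61e-05). RAMP2, the partner that makes it prefer adrenomedullin, was listed at 0 in all parental libraries and at 1.16, 1.61 and 1.80 FPKM in resistant libraries, through which alone it entered the test (limma adjusted p = 3.24e-04). The receptor CALCRL itself was low, at 0.960, 0.149 and 0.686 FPKM in parental and 0.624, 0.414 and 0.221 FPKM in resistant libraries. Its groups overlapped, and the difference missed the threshold (limma adjusted p = 0.772). RAMP3 was listed at 0 throughout, the calcitonin receptor CALCR was above 0 in 1 parental library, at 0.0496 FPKM, and ACKR3, an atypical receptor that can take up adrenomedullin, missed the threshold (limma adjusted p = 0.666).

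GRP itself was listed at 0, while the receptor GRPR and the sister peptide gene NMB differed between the groups. GRPR, the receptor of gastrin releasing peptide, gave 2.94, 1.86 and 3.19 FPKM in parental and 0.0375, 0.0778 and 0 FPKM in resistant libraries. The groups did not overlap, and the log2 difference was -4.32 with a standard error of 0.40 for a gene that entered the test through parental libraries alone (limma adjusted p = 3.34e-04). NMB, the gene of the sister peptide neuromedin B, gave 4.38, 8.14 and 5.90 FPKM in parental and 224, 235 and 224 FPKM in resistant libraries. All resistant libraries were far above the parental ones, with a ratio of means of 37.1 and a log2 difference of 5.23 with a standard error of 0.21 (limma adjusted p = 1.73e-05). NMBR, the receptor that prefers neuromedin B, was above 0 in 1 library, at 0.0668 FPKM in resistant replicate 2.

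In the family of vasoactive intestinal peptide, VIPR1, 1 of its receptors, fell from 14.0 ± 2.64 to 6.06 ± 0.673 FPKM (SD, n = 3 each, log2 difference -1.18, limma adjusted p = 0.00227). VIPR2 lay below the filter, at 0.0811 to 0.249 FPKM in parental libraries and 0 in resistant libraries. ADCYAP1, the gene of the related peptide PACAP, was listed at 0 in all parental libraries and at 9.91, 9.10 and 10.2 FPKM in resistant libraries, through which alone it entered the test (limma adjusted p = 1.55e-05). Its own receptor ADCYAP1R1 was at or below 0.0874 FPKM in every library.

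For the other peptides the receptors were mostly low. SORT1, the sorting receptor that binds neurotensin, rose from 7.73 ± 1.5 to 20.1 ± 0.834 FPKM (SD, n = 3 each, log2 difference 1.39, limma adjusted p = 7.05e-04), while the signalling receptor NTSR1 was listed at 0 in all libraries. NPY1R, a receptor of neuropeptide Y, had means of 0.756 ± 0.139 and 1.97 ± 1.09 FPKM and missed the threshold (limma adjusted p = 0.0609). PTH1R, the receptor of parathyroid hormone related protein, rose from 0.227 ± 0.148 to 0.929 ± 0.212 FPKM (log2 difference 1.75, limma adjusted p = 0.0282). PTH2, a ligand of the related receptor PTH2R, was listed at 0 in parental libraries and at 0.564, 1.36 and 2.37 FPKM in resistant libraries, through which alone it entered the test (limma adjusted p = 0.00231).

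**Figure D2:**
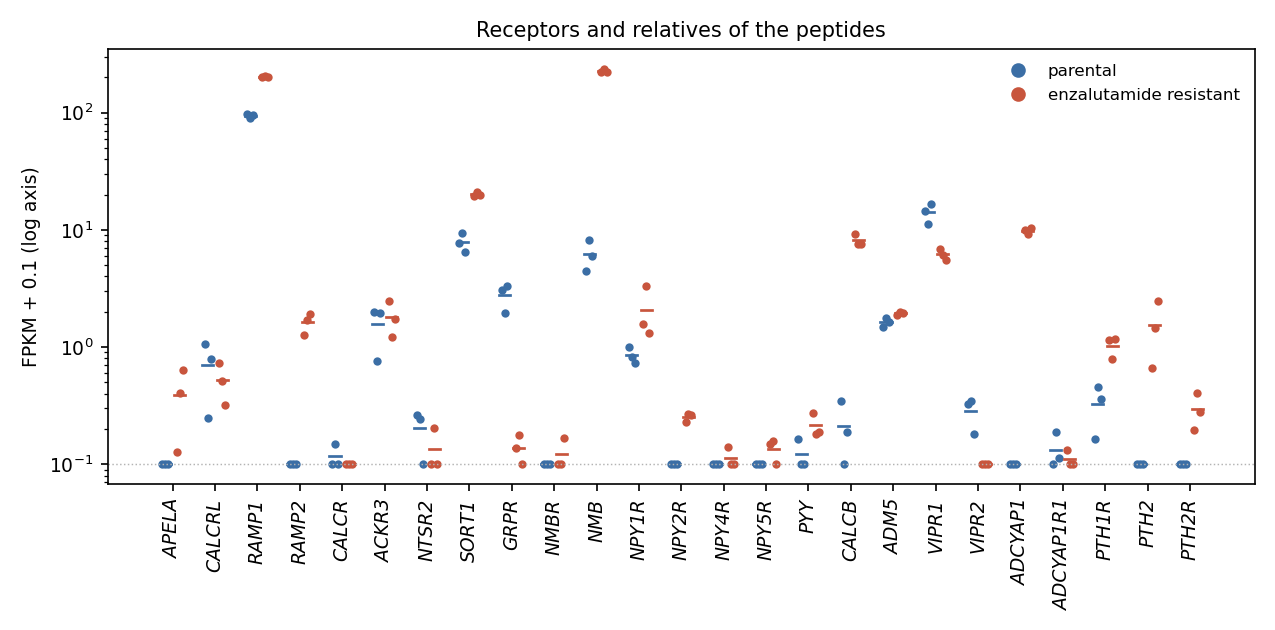
FPKM + 0.1 on a log axis for the 25 receptors, accessory proteins and sister peptides above 0 in a library, drawn as points for the libraries, bars at group means of 3 libraries and a dotted line where 0 falls. NMB (224 to 235 FPKM) and RAMP1 lead in resistant libraries, GRPR drops to 0.0778 FPKM or less, and CALCRL overlaps between the groups.

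Enzymes that mature peptide precursors were a list of 14 genes, of which 10 were tested, with 5 higher and 3 lower and a median log2 difference of 0.13, beside 44.4% called over all genes. FURIN, a convertase of the general secretory pathway, rose from 7.85 ± 0.659 to 23.4 ± 2.68 FPKM (log2 difference 1.56, limma adjusted p = 1.91e-04). CPE, the carboxypeptidase that trims cut peptides, rose from 22.4 ± 2.02 to 44.3 ± 1.73 FPKM (log2 difference 0.98, limma adjusted p = 3.69e-04). QPCT, which caps peptides such as apelin and neurotensin with pyroglutamate, gave 0, 0.0823 and 0 FPKM in parental and 3.04, 3.48 and 4.46 FPKM in resistant libraries, through which alone it entered the test (limma adjusted p = 1.82e-04). PCSK1N, an inhibitor of the neuroendocrine convertase PCSK1, rose from 1.67 ± 0.669 to 18.5 ± 1.54 FPKM (log2 difference 3.48, limma adjusted p = 3.28e-04). CPD also rose, and PCSK6, PCSK7 and SCG5, the chaperone of PCSK2, fell.

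The neuroendocrine convertases themselves lay below the filter, with at most 0.180 FPKM for PCSK1 and 0.0228 FPKM for PCSK2. PAM, which amidates the ends of neuropeptide Y, adrenomedullin and calcitonin gene related peptide, was at 8.01 ± 1.54 FPKM in parental and 6.69 ± 1.60 FPKM in resistant libraries and missed the threshold (limma adjusted p = 0.383).

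Peptidases that break down these hormones were a list of 12 genes, of which 11 were tested, with 2 higher and 4 lower and a median log2 difference of -0.25, beside 44.4% called over all genes. MME, or neprilysin, a surface peptidase with a wide range of substrates, gave 672, 663 and 691 FPKM in parental and 29.2, 31.0 and 38.4 FPKM in resistant libraries. The parental mean was 20.6 times the resistant mean, with a log2 difference of -4.37 and a standard error of 0.11 (limma adjusted p = 3.76e-06). DPP4, which trims neuropeptide Y and other peptides from the front end, gave 66.8, 77.3 and 70.9 FPKM in parental and 2.66, 2.77 and 3.02 FPKM in resistant libraries. Its parental mean was 25.4 times the resistant mean (log2 difference -4.62, SE 0.11, limma adjusted p = 2.99e-06). The groups were far apart for both genes.

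THOP1 and IDE were also lower. ECE1, the endothelin converting enzyme, rose from 11.7 ± 2.16 to 44.1 ± 6.39 FPKM (log2 difference 1.91, limma adjusted p = 2.72e-04). ENPEP, an aminopeptidase of angiotensin, gave 0.00790, 0 and 0 FPKM in parental and 2.43, 2.06 and 3.63 FPKM in resistant libraries, through which alone it entered the test (limma adjusted p = 1.65e-04).

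**Figure D3:**
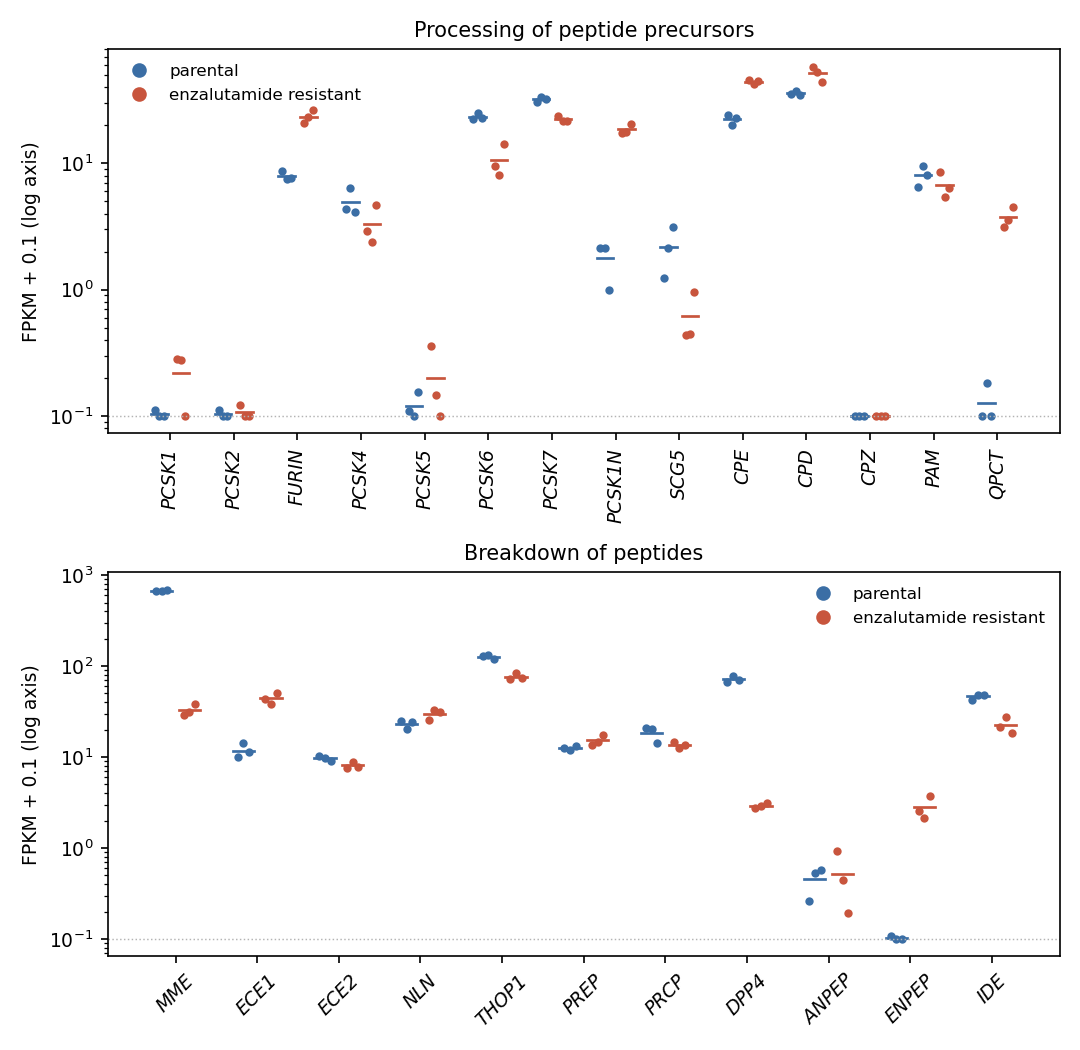
FPKM + 0.1 on a log axis for the enzymes that process peptide precursors (upper panel) and the 11 tested peptidases that break peptides down (lower panel), with points for the libraries, bars at group means of 3 libraries and a dotted line where 0 falls. FURIN, PCSK1N, CPE and QPCT are higher in resistant libraries, and MME falls from 663 FPKM or more to 38.4 FPKM or less.

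A wider list of 60 other peptide hormone genes gave 36 above 0 in a library and 28 tested, with 6 higher, 8 lower and a median log2 difference of -0.25. These counts, 14 of 28, are near the 44.4% called over all genes and are not read as a result about peptide hormones. Of the 28, TAC3 and NPPB entered the test only through resistant libraries, and GHRL and AGT only through parental libraries. Any call of these genes is partly set by the filter. GAL, the gene of galanin, fell from 50.4 ± 5.07 to 9.78 ± 1.56 FPKM (log2 difference -2.36, limma adjusted p = 7.04e-05). STC2, the gene of stanniocalcin 2, fell from 48.8 ± 4.35 to 9.41 ± 0.679 FPKM (log2 difference -2.36, limma adjusted p = 2.42e-05). NMU, the gene of neuromedin U, rose from 10.1 ± 1.51 to 51.1 ± 12.1 FPKM (log2 difference 2.32, limma adjusted p = 2.39e-04). Of the endothelin genes, EDN1 rose from 0.109 ± 0.0825 to 4.35 ± 0.428 FPKM (log2 difference 4.48, limma adjusted p = 2.04e-04) and EDN2 from 3.42 ± 0.889 to 12.5 ± 1.31 FPKM (log2 difference 1.87, limma adjusted p = 9.42e-04). The number of genes called in this list was 14, and 9 without parental replicate 2 or without resistant replicate 2.

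Adrenomedullin and apelin are known to rise in low oxygen, and ADM2 is known to respond to the stress factor ATF4, so genes of both responses were read beside them. Of 20 hypoxia responsive genes tested, 14 were lower and 0 were higher in resistant cells, with a median log2 difference of -0.94, beside 22.3% lower over all genes. The 6 that missed the threshold were PFKFB3, INSIG2, BNIP3L, CA9, KDM3A and EGLN1. NDRG1, a stress gene induced in low oxygen, fell from 286 ± 28.1 to 36.7 ± 6.98 FPKM (log2 difference -2.97, limma adjusted p = 3.96e-05), and BNIP3 fell from 127 ± 4.46 to 24.6 ± 7.17 FPKM (log2 difference -2.41, limma adjusted p = 2.00e-04). Of 16 ATF4 responsive genes tested, 12 were lower and 1, DDIT3, was higher, beside 22.3% lower and 22.1% higher over all genes. The 12 include FGF21, which entered the test only through parental libraries, so that its call is partly set by the filter. The median log2 difference of the list was -0.73, while ASNS, TRIB3 and CEBPB missed the threshold. CHAC1, a glutathione degrading enzyme, fell from 17.6 ± 1.35 to 4.29 ± 0.567 FPKM (log2 difference -2.01, limma adjusted p = 1.06e-04). The part of either response in the values of ADM, APLN and ADM2 was not tested.

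**Figure D4:**
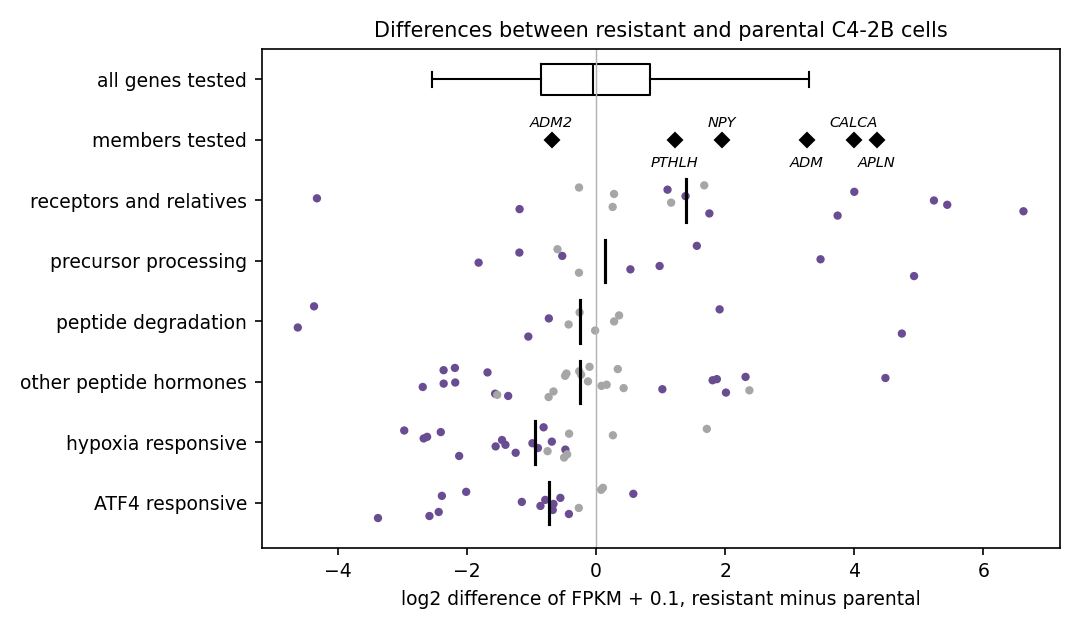
Log2 differences of FPKM + 0.1, resistant minus parental, for all 24468 genes tested (box from the lower to the upper quartile with the median, whiskers that leave out the lowest and the highest 5%), for the 6 tested peptide genes (diamonds) and for the lists (dots, purple where past the threshold, with a line at the median). APLN, CALCA and ADM lie at 4.35, 3.99 and 3.26, beyond the box of all genes, ADM2 lies at -0.69, and the hypoxia and ATF4 lists lie mostly below 0.

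Markers of the cell types were read beside the peptides. All 12 prostate luminal markers were present in the libraries. KLK3, the gene of prostate specific antigen, fell from 2556 ± 274 to 44.04 ± 2.58 FPKM (log2 difference -5.85, limma adjusted p = 1.10e-06), and HOXB13 stood at 103 ± 6.91 and 102 ± 3.76 FPKM. Of 8 neuroendocrine markers, 5 of 6 tested were called higher, beside 22.1% over all genes, but CHGB, CHGA and SCG2 entered the test only through resistant libraries, which leaves ENO2 and SYP. The summed level of the list was 7.13 to 11.3 FPKM in parental and 190 to 212 FPKM in resistant libraries. The part of this shift in the peptide values was not tested. The neuroendocrine factor INSM1 was below the filter.

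Endothelial cells are a known source of apelin and adrenomedullin. The 8 endothelial markers summed to 0.944 to 1.43 FPKM in parental and 2.13 to 2.73 FPKM in resistant libraries. KDR was listed at 0 in every library, and CDH5 and PECAM1 were at 0 in all parental libraries and reached at most 0.0166 and 0.213 FPKM in resistant libraries. Of the 2 tested, ESAM was higher and VWF was lower. The 6 fibroblast markers summed to 8.04 to 10.9 FPKM in parental and 8.34 to 15.0 FPKM in resistant libraries, with PDGFRB lower, and with DCN and LUM called higher but tested only through resistant libraries. The 6 leukocyte markers summed to 0.0879 to 0.843 FPKM and 0.145 to 0.786 FPKM, with none of the 2 tested past the threshold. Over all genes tested, 22.1% were higher and 22.3% lower, so these few calls say little about the cell types. The part of these cell types in the peptide values was not tested.

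The genes most like APLN over the 6 libraries were taken as the 5 protein-coding genes with the highest Pearson correlation of log2(FPKM + 0.1), among 12368 with a mean of at least 1 FPKM. They were SFN, XKR7, UGDH, PAX5 and TMEM38B, with r between 0.99989 and 0.99998. As the 6 libraries form a pair of groups, any gene with a clear increase and little spread within the groups correlates highly, and 743 genes reached 0.99. SFN, the gene of the checkpoint protein 14-3-3 sigma, rose from 0.474 ± 0.0764 to 138 ± 6.75 FPKM. UGDH, a UDP-glucose dehydrogenase, rose from 30.0 ± 1.62 to 196 ± 2.44 FPKM.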

How the data were processed

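RNA-Seq of 3 C4-2B parental and 3 C4-2B enzalutamide resistant libraries was analysed, grouped by the labels. Per the methods, the authors used TrimGalore 0.4.3 for trimming of 50 bp single-end reads, STAR 2.5.3 for alignment to GRCh38 and Cufflinks 2.2.1 with GENCODE v25 for the deposited FPKM values. The submitters' processing notes name instead Trimmomatic 0.27, FastQC 0.10.1 and the build mm10. The table names no unit, and FPKM was taken from the methods and the values. The scaling between libraries is not given in the sources used here. No test on counts was possible.

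The groups were tested against each other in R 4.3.3 by limma 3.58.1, on log2(FPKM + 0.1) with a mean-variance trend. Genes averaging 0.1 FPKM or more entered, two-sided, with Benjamini-Hochberg adjustment and a threshold of 0.05. The fit was tested on simulated data. Depth was estimated from the step that 1 read leaves in single-transcript genes (600 to 8000 bases), with fragments taken as 200 bases. Positions, neighbours and transcripts came from GENCODE v44. Python 3.11.15, numpy 2.4.6, pandas 2.3.3, scipy 1.17.1 and matplotlib 3.10.9 were used.

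The members and lists were chosen with earlier results of these data known. The genes named were the members, their receptors and relatives, per list up to 5 called genes by adjusted p, the cell type markers, neighbours within 50 kb and the 5 genes most like APLN. Genes named outside this rule, such as those of the lists that are close to the threshold or below the filter, were chosen after their values were seen. Alternatives covered scaling, pseudocount, filter, variance trend, replicate number, threshold and each library left out. Protein sequences were not analysed here, and some genes of the lists are not reported here.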

Additional observations from a re-analysis of the deposited data

How the results depend on the processing

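Of the genes called, 10868 in all, 6979 remained with a change of at least 2-fold required. Leaving out 1 library gave 9303 to 10190 calls, and the other alternatives 9021 to 11519. The peptide genes called, 3 without APLN, ranged from 2 to 4. ADM, ADM2 and CALCA passed the threshold under every alternative on the fit, while the 2-fold requirement removed ADM2. NPY passed only without resistant replicate 2, the library listed at 0, with a log2 difference of 2.93. PTHLH passed under none. The pseudocount moved the values of low genes most, with CALCA at 2.05 with 1 FPKM and 5.34 with 0.01 FPKM. APLN ranged from 4.24 to 4.45. Median-ratio scaling raised the median log2 difference over all genes by 0.10. In the list of other peptide hormones, 7 rather than 14 genes were called with a mean of at least 1 FPKM, as fewer genes were tested. The lists together held 57 to 73 calls.

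A replicate block gave 9463 calls and changed no call among the peptide genes. Deviations of libraries with the same number correlated at 0.00802, 0.0165 and -0.00301. Those of libraries with different numbers ranged from -0.0260 to 0.0201, so no pairing by number was seen.

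Without read counts, levels near 1 read could not be given a counting error, which limits APLNR, NTS, NPY and PTHLH and the parental values of ADM and CALCA.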
